A study of Mus musculus with 3 samples.

Results

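The barcodes described here came from dissociated mouse dentate gyrus and were rich in mitochondrially encoded RNA while also carrying mRNA that neurons send into their dendrites. A barcode is the tag shared by all molecules captured in one droplet, and a unique molecular identifier (UMI) counts one captured molecule. Barcodes were kept when at least 30% of their UMIs came from genes whose names start with mt- and when they held at least 1 UMI of Camk2a or Ddn. The rule selected 4688 of 8105 barcodes. They were 1249 of 2356 in the control library, 53.0% (95% interval 51.0 to 55.0%), 1831 of 3328 in the runner library, 55.0% (95% interval 53.3 to 56.7%), and 1608 of 2421 in the aged library, 66.4% (95% interval 64.5 to 68.3%). These intervals are exact Clopper-Pearson intervals and cover counting error only. The selected barcodes are called dendritic-mRNA barcodes hereafter, and values in sets of 3 follow the order control, runner, aged.

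Each of the 3 libraries is the single library of its condition, so nothing was tested between conditions. The control library came from 8-week-old mice in standard housing, the runner library from littermates given a running wheel for 12 days, and the aged library from 14-month-old mice that did not run. The sample labels name the hGFAP-eGFP reporter strain for all mice, in which the promoter of human GFAP, a gene of astrocytes and neural stem cells, drives green fluorescent protein, while the series text calls them wild type and mentions that reporter in its account of the aged animals. The number of pooled mice was not given in those sources. Dentate gyri were digested with trypsin and EDTA, strained, cleared on density steps and loaded for droplet-based 3' RNA sequencing (10x Chromium, version 2 chemistry).

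Neurons transport a subset of their mRNAs along microtubules into dendrites, where local ribosomes translate them near synapses. Camk2a encodes the alpha subunit of calcium/calmodulin-dependent kinase II and Ddn encodes dendrin, a postsynaptic protein, and both mRNAs are classic dendritic cargoes, as is that of Map2, the microtubule-associated protein of dendrites. Most other mRNAs, and nuclear noncoding RNAs such as Malat1 and Meg3, stay in the cell body or nucleus. Dendrites, astrocyte processes and myelin sheaths lie intermingled in the neuropil, and astrocytes and oligodendrocytes also export mRNAs such as Slc1a2 and Mbp into their processes.

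Because the rule counts names starting with mt-, genes elsewhere in the genome that copy mitochondrial sequence count as non-mitochondrial. The sequence of the most abundant copy is shown for that reason. Gm28438 lies on chromosome 1 (GRCm38, 24612775 to 24613119, minus strand), is annotated as an unprocessed pseudogene, and matched mt-Nd3, a subunit of respiratory complex I, over 345 bases with 1 mismatch. The last 90 bases of the copy, positions 256 to 345 from its 5′ end, were identical to the same positions of mt-Nd3 in the GENCODE M21 transcripts, near the 3' end, from which this chemistry reads.
Gm28438: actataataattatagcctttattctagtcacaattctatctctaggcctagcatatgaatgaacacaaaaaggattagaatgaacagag
mt-Nd3: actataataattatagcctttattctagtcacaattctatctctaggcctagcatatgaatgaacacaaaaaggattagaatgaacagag
The dendritic-mRNA barcodes held 4829, 4545 and 6372 UMIs under Gm28438 and only 47, 280 and 167 under mt-Nd3, and reads from the printed stretch cannot be told apart between the 2 names. Gm28438 stood at 9003, 6114 and 8554 UMIs per 1000000 non-mitochondrial UMIs (CPM) in these barcodes and at 549, 346 and 441 CPM in mature neurons. The neighbouring copies Gm28437, Gm10925 and Gm28661 had 0 mismatches to mt-Co3, mt-Atp6 and mt-Co2 over their aligned lengths. With these and Gm29216, a copy of mt-Co1, counted as mitochondrial, the rule selected 1257, 1835 and 1610 barcodes, which included every barcode selected without the change. The 5 copies made up 1.04, 0.804 and 1.001% of the non-mitochondrial UMIs. These genes were singled out after their values were seen.

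The dendritic-mRNA barcodes were shallow. Their median was 715, 716 and 802 UMIs, of which 396, 359 and 397 were non-mitochondrial, over 278, 261 and 275 genes, and the median mitochondrial share was 45.4, 49.1 and 49.98%. A median barcode held 3 UMIs of Camk2a plus Ddn. The sums used for gene levels held 536405, 743373 and 744872 non-mitochondrial UMIs. Pairs of libraries shared 10 barcodes (control and runner), 10 (control and aged) and 8 (runner and aged), of which 4, 6 and 3 were dendritic-mRNA barcodes in both. They were compared with mature neurons, taken as barcodes with at least 200 genes, under 10% mitochondrial UMIs and at least 4 of 11 neuronal genes detected. There were 25, 66 and 11 such neurons, with a median of 2021, 2513.5 and 2156 non-mitochondrial UMIs and sums of 52801, 170415 and 24942. In the aged neuron sum, 1 UMI is therefore worth 40.1 CPM, and a low gene there is poorly measured.

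The rule genes themselves are described and not tested. Camk2a stood at 6292, 7814 and 5797 CPM in the dendritic-mRNA barcodes and 1023, 909.5 and 1203 CPM in the neurons. Ddn stood at 3637, 3303 and 2847 CPM in the dendritic-mRNA barcodes and 682, 323 and 521 CPM in the neurons. In every library both genes were higher in the dendritic-mRNA barcodes, but the rule requires a UMI of Camk2a or Ddn, which raises these levels. Over all barcodes with at least 30% mitochondrial UMIs, selected or not, Camk2a stood at 5681, 6868 and 5211 CPM. Ddn stood there at 3284, 2903 and 2560 CPM, and both genes together at 8965, 9771 and 7770 CPM. Camk2a and Ddn were detected together in 60.8, 57.1 and 58.3% of the dendritic-mRNA barcodes. A background level was taken from a microglia reference of 832 barcodes with at least 4 of 12 microglia markers, cells that should lack both genes. There, 45.5, 31.3 and 31.7% of barcodes held a UMI of Camk2a or Ddn at a median of 1412, 1549.5 and 1364 non-mitochondrial UMIs, and the level was 489.6, 259 and 256 CPM against 9929, 11117 and 8644 CPM in the dendritic-mRNA barcodes. Just under the 30% limit, at 28 to 30% mitochondrial UMIs, 36, 21 and 17 barcodes had 6222, 5080.0 and 5441 CPM of Camk2a plus Ddn, and just over it, at 30 to 32%, 40, 21 and 23 barcodes had 5929, 5523 and 4401 CPM.

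Map2, the marker that the rule did not use, was checked against the label. It was present at 1596, 1971 and 1383 CPM in the dendritic-mRNA barcodes and 208, 469 and 441 CPM in the neurons, and at 47.6, 44.6 and 43.7 CPM in the microglia reference. A Map2 UMI was found in 44.5, 47.1 and 43.4% of the dendritic-mRNA barcodes at their median of 396, 359 and 397 non-mitochondrial UMIs, and in 6.32, 5.88 and 5.85% of the deeper microglia reference. In CPM, Map2 lay above the neurons and the microglia reference in every library. The share of barcodes with a Map2 UMI did not. It was higher in the deeper neurons of the runner library (66.7%) and the aged library (45.5%), and lower in those of the control library. Mitochondria-rich barcodes without a UMI of Camk2a or Ddn, described below, also had more Map2 in CPM than the neurons. Glial marker UMIs were found in the dendritic-mRNA barcodes too. At least 1 of 12 astrocyte markers was detected in 99.3, 97.1 and 98.1% of them, at least 1 of 10 oligodendrocyte markers in 80.3, 74.8 and 74.2% and at least 1 of 12 microglia markers in 46.3, 32.9 and 42.0%. In the microglia reference, which should lack the first 2 kinds and was deeper, 78.3, 61.5 and 65.4% held an astrocyte marker and 78.3, 79.4 and 75.6% an oligodendrocyte marker. A marker UMI thus also occurs in barcodes where the marker should be absent, and the levels below are the better measure. Whether such UMIs came from free RNA or from doublets, which were not removed, was not tested. None of the 11 genes that define the mature neurons was detected in 44.0, 45.5 and 49.9%. The name is therefore used for their dendritic mRNA content alone, since they hold astrocyte and oligodendrocyte mRNA beside it.

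The main comparison asked how the non-mitochondrial mRNA of the dendritic-mRNA barcodes differed from that of mature neurons of the same libraries. In the dendritic-mRNA barcodes 16 of 25 dendritically localised mRNAs were higher and 5 lower. All 12 astrocyte and all 12 microglia markers and 80 of 82 ribosomal protein mRNAs were higher. Lower were 6 of 7 nuclear noncoding RNAs, 5 of 7 genes of AMPA and NMDA receptors and all 5 granule neuron markers. The neurons were chosen partly by granule genes, so the granule result is not independent of that choice. Of 86 nuclear-encoded respiratory chain mRNAs, 63 were higher with the main scaling and 27 on library totals. UMIs were summed per library and class and tested with edgeR's quasi-likelihood test, with the library as a block and Benjamini-Hochberg adjustment over all genes tested. Of 5113 genes tested, 2881 (56.3%) passed an adjusted p of 0.05, of which 1526 (29.8%) were higher and 1355 (26.5%) were lower. DESeq2 called 1223 higher and 600 lower. Without the runner library, which holds most of the neurons, edgeR called 958 higher and 617 lower of 4778 genes tested. Thinning every barcode to 200 non-mitochondrial UMIs, which leaves fewer UMIs to test, gave 280 higher and 135 lower of 1594. Several genes named below lost their calls there, as listed in the last section. The test has 3 libraries, which are also 3 conditions. Its p-values measure whether the classes differ across these libraries, not whether other mice would show the same.

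The direction of small differences depended on scaling. With edgeR's TMM factors the median gene lay at 0.05, and with the library totals alone at -0.81 on the log2 scale. A gene with equal CPM in both classes therefore has a log2 fold change of 0.87 in the TMM fit. On library totals, 832 genes were higher and 2409 lower. Log2 fold changes are given from the TMM fit with their standard errors, and the CPM values beside them are on library totals.

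The list of dendritically localised mRNAs held 27 genes, of which 26 were in the tables and 25 were tested. Arc, an immediate early gene whose mRNA travels to active synapses, was too low to be tested, and Cnksr2 was not listed. Against backgrounds of 29.8% higher and 26.5% lower, 16 of the 25 were higher in the dendritic-mRNA barcodes and 5 were lower, and the median log2 fold change was 2.18 against 0.05 over all genes. On library totals 14 were higher and 7 lower. Summed over the list, the level was 17806, 20598 and 18923 CPM in the dendritic-mRNA barcodes and 13182, 12687 and 14433.5 CPM in the neurons. The list as a whole was thus modestly higher in CPM in every library, while its genes diverged widely, from Kif5a at 5.29 to Gria2 at -3.62.

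Kif5a, Map2 and Kif1a, which belong to microtubules and their motors, were higher. Kif5a, a neuronal kinesin-1 heavy chain that carries mitochondria and mRNA granules along microtubules (GRCm38, chromosome 10, 127225696 to 127263348, minus strand), was at 2565, 3071 and 3137 CPM in the dendritic-mRNA barcodes and 227, 111 and 80.2 CPM in the neurons, log2 fold change 5.29 ± 0.22, adjusted p = 7.79e-17. Every dendritic-mRNA value lay far above the neuron value of its library. Map2 (chromosome 1, 66175273 to 66442583, plus strand), with the levels given above, had a log2 fold change 3.07 ± 0.19, adjusted p = 5.07e-13, and the classes did not overlap. Kif1a, a kinesin-3 that carries synaptic vesicle precursors, was at 498, 557 and 651 CPM in the dendritic-mRNA barcodes and 246, 194 and 120.3 CPM in the neurons, log2 fold change 2.37 ± 0.25, adjusted p = 1.19e-08.

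Of 7 postsynaptic density scaffolds on the list, 5 were higher, 1 was lower and 1 did not pass. Shank1, a master scaffold that links receptor complexes to actin, was at 936, 1451 and 939.8 CPM in the dendritic-mRNA barcodes and 208, 282 and 160.4 CPM in the neurons, log2 fold change 3.21 ± 0.20, adjusted p = 8.31e-13. Dlg4, which encodes PSD-95, was at 818, 983 and 804 CPM in the dendritic-mRNA barcodes and 208, 252 and 241 CPM in the neurons, log2 fold change 2.81 ± 0.21, adjusted p = 1.74e-11. For both genes the lowest dendritic-mRNA value lay well above the highest neuron value. Their partners Shank2, Shank3 and Dlgap3 had log2 fold changes of 2.18 ± 0.43, 4.39 ± 0.87 and 2.91 ± 0.36, with adjusted p values of 1.24e-04, 1.40e-04 and 2.38e-07. Shank3 rested on few UMIs, at 18.9, 0 and 0 CPM in the neurons, and its adjusted p was 0.0861 without the runner library. Homer1, another scaffold, did not pass the test (log2 fold change 0.40 ± 0.46, adjusted p = 0.476), with 24.2, 45.7 and 20.1 CPM in the dendritic-mRNA barcodes and 56.8, 58.7 and 0 CPM in the neurons, and its sign turned on library totals. Lrrc7, which encodes densin, went the other way, at 22.4, 17.5 and 10.7 CPM in the dendritic-mRNA barcodes and 133, 135 and 80.2 CPM in the neurons, log2 fold change -1.93 ± 0.38, adjusted p = 1.16e-04.

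Psd, Ppp1r9b, Camk2n1 and Agap2, which act in spine actin or postsynaptic signalling, were higher, and Cyfip2 did not pass. Psd, an exchange factor for the small GTPase ARF6 (chromosome 19, 46312087 to 46327156, minus strand), was at 1353, 1711 and 1556 CPM in the dendritic-mRNA barcodes and 265, 211 and 241 CPM in the neurons, log2 fold change 3.65 ± 0.20, adjusted p = 2.49e-14. Ppp1r9b, which encodes spinophilin, an actin-binding subunit of protein phosphatase 1, was at 1124, 1224 and 1249 CPM in the dendritic-mRNA barcodes and 189, 205 and 80.2 CPM in the neurons, log2 fold change 3.59 ± 0.22, adjusted p = 3.99e-13. In both genes all dendritic-mRNA values lay above all neuron values. Camk2n1, an inhibitor of the kinase that Camk2a encodes, was at 1424, 1505 and 1492 CPM in the dendritic-mRNA barcodes and 568, 376 and 561 CPM in the neurons, log2 fold change 2.55 ± 0.18, adjusted p = 4.47e-12. Agap2, a GTPase-activating protein, was at 265, 324 and 438 CPM in the dendritic-mRNA barcodes and 0, 70.4 and 0 CPM in the neurons, log2 fold change 3.70 ± 0.40, adjusted p = 2.42e-08, with no UMI in the control and aged neurons. Cyfip2, a regulator of actin nucleation, was at 203, 174 and 204 CPM in the dendritic-mRNA barcodes and 284, 252 and 281 CPM in the neurons and did not pass (log2 fold change 0.38 ± 0.25, adjusted p = 0.208), and its sign turned on library totals.

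Of 3 genes of calcium signalling on the list, Ppp3ca was lower and Hpca and Itpka did not pass. Ppp3ca, the catalytic subunit of calcineurin, was at 418, 347 and 395 CPM in the dendritic-mRNA barcodes and 2992, 2324 and 4049 CPM in the neurons, log2 fold change -2.05 ± 0.15, adjusted p = 1.25e-11. Hpca stood at 166, 257 and 179 CPM in the dendritic-mRNA barcodes and 417, 634 and 200.5 CPM in the neurons, and Itpka at 31.7, 33.6 and 25.5 CPM in the dendritic-mRNA barcodes and 114, 106 and 120.3 CPM in the neurons. Hpca, the calcium sensor hippocalcin, and Itpka, an inositol trisphosphate kinase whose mRNA is found in dendrites, had log2 fold changes of -0.26 ± 0.25 (adjusted p = 0.380) and -0.91 ± 0.39 (adjusted p = 0.0518). Neither passed with TMM scaling, and both were lower on library totals. Eef2 and Eef1a1, elongation factors of translation, were higher: Eef2 was at 913, 1103 and 1018 CPM in the dendritic-mRNA barcodes and 341, 399 and 401 CPM in the neurons, log2 fold change 2.32 ± 0.18, adjusted p = 8.29e-11, and Eef1a1 was at 1998, 2007 and 2117 CPM in the dendritic-mRNA barcodes and 1420.4, 1249.9 and 1163 CPM in the neurons, log2 fold change 1.56 ± 0.14, adjusted p = 1.00e-09.

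The 3 glutamate receptor mRNAs of the list were lower. Gria2, the AMPA receptor subunit that limits calcium entry, was at 116, 79.4 and 67.1 CPM in the dendritic-mRNA barcodes and 1780.3, 2101 and 2125 CPM in the neurons, log2 fold change -3.62 ± 0.21, adjusted p = 1.16e-13. Gria1, another AMPA receptor subunit, was at 61.5, 101 and 101 CPM in the dendritic-mRNA barcodes and 606, 663 and 481 CPM in the neurons, log2 fold change -1.88 ± 0.25, adjusted p = 7.18e-07. Grin1, the obligatory NMDA receptor subunit, was at 14.9, 26.9 and 20.1 CPM in the dendritic-mRNA barcodes and 75.8, 223 and 281 CPM in the neurons, log2 fold change -2.21 ± 0.38, adjusted p = 2.37e-05. In all 3 genes every dendritic-mRNA value lay below every neuron value. A separate list of AMPA and NMDA receptor subunits and their auxiliary proteins, which shares these 3 genes with the dendritic list, had 2 of 7 tested genes higher and 5 lower (1 and 5 on library totals), with a median of -2.21 and a summed level of 679, 854 and 643 CPM against 3333, 4055 and 3729 CPM in the neurons. Cnih2, a chaperone of AMPA receptors, was one of the higher genes, at 421, 541 and 379.9 CPM in the dendritic-mRNA barcodes and 114, 176 and 160.4 CPM in the neurons, log2 fold change 2.50 ± 0.26, adjusted p = 1.25e-08.

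**Figure D1:**
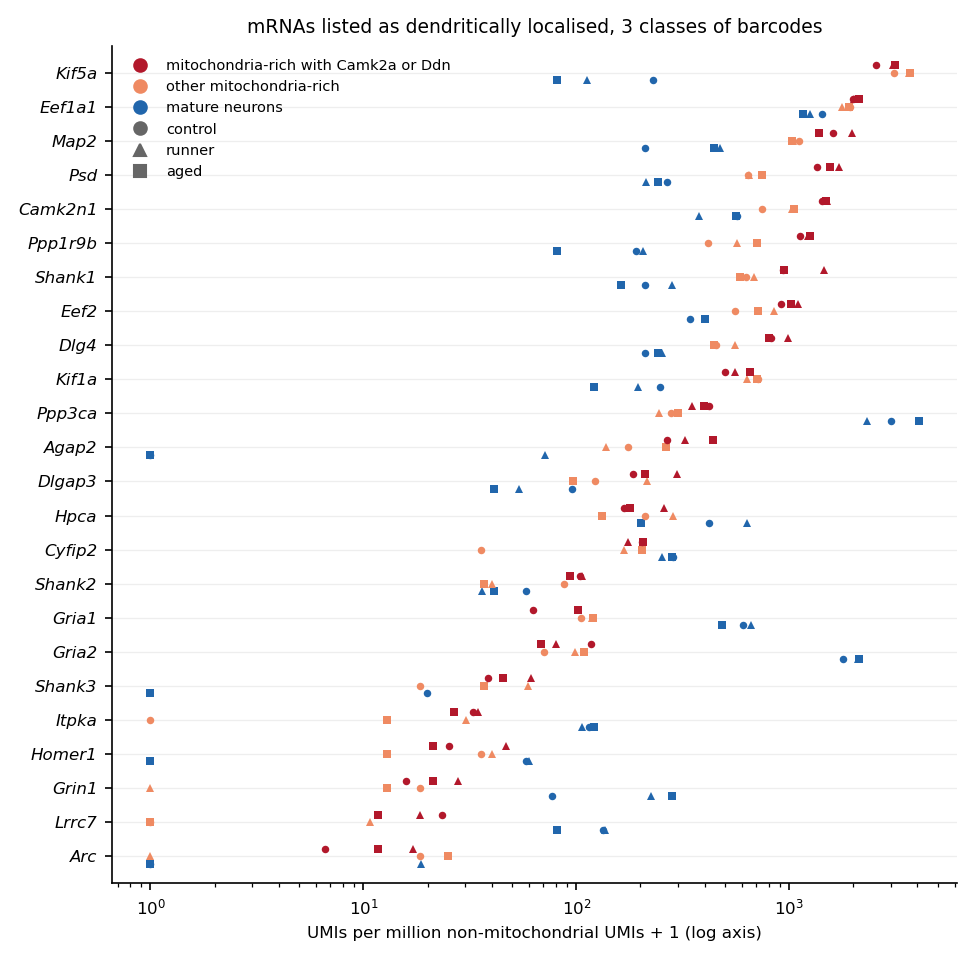
Levels of 24 of the 26 dendritic-list genes present in the tables, as UMIs per 1000000 non-mitochondrial UMIs plus 1 on a log axis, with 1 point per library (circle control, triangle runner, square aged) for the dendritic-mRNA barcodes (red), the other mitochondria-rich barcodes (orange) and the mature neurons (blue). Kif5a, Psd and Map2 lie to the right of the neurons in all 3 libraries, and Gria2, Ppp3ca and Lrrc7 lie to their left.

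Other synaptic genes were divided. Of 12 tested genes of calcium and kinase signalling, 2 were higher and 5 lower (2 and 8 on library totals, median -0.42). Calm2 and Calm3, which both encode calmodulin, differed from each other: Calm2 was at 939.6, 946 and 806 CPM in the dendritic-mRNA barcodes and 4659, 4125 and 4410.2 CPM in the neurons, log2 fold change -1.37 ± 0.13, adjusted p = 1.10e-09, while Calm3 was at 1070.1, 1212 and 988 CPM in the dendritic-mRNA barcodes and 663, 763 and 601 CPM in the neurons, log2 fold change 1.57 ± 0.17, adjusted p = 1.41e-08. Camk2b, the beta subunit of the kinase, was at 388, 382 and 307 CPM in the dendritic-mRNA barcodes and 871, 980.0 and 962 CPM in the neurons, log2 fold change -0.47 ± 0.19, adjusted p = 0.0370. That call was lost with DESeq2 (adjusted p = 0.562), with 1 library left out (adjusted p = 0.168 to 0.366) and at mitochondrial minimums of 40 and 50%, and its sign turned without the filter on low counts. Of 16 tested presynaptic vesicle genes, 7 were higher and 6 lower with a median of 0.45, but 3 were higher and 7 lower on library totals. Cplx2 and Cplx1, complexins that clamp vesicle fusion, were higher (1.92 ± 0.14, adjusted p = 2.52e-11, and 2.50 ± 0.32, adjusted p = 4.59e-07). Vamp2, a vesicle SNARE, was at 438, 568 and 498 CPM in the dendritic-mRNA barcodes and 568, 452 and 361 CPM in the neurons, overlapping ranges, and its call (log2 fold change 1.01 ± 0.21, adjusted p = 2.79e-04) was lost on library totals.

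Most nuclear noncoding RNAs tested were lower. Malat1, a noncoding RNA retained in nuclear speckles, was at 5826, 2057 and 4597 CPM in the dendritic-mRNA barcodes and 94525, 103541 and 126975 CPM in the neurons, log2 fold change -3.89 ± 0.18, adjusted p = 8.98e-16. Meg3, a nuclear noncoding RNA of the imprinted Dlk1-Dio3 region, was at 33.6, 43.0 and 21.5 CPM in the dendritic-mRNA barcodes and 2443, 3274 and 3288 CPM in the neurons, log2 fold change -5.60 ± 0.21, adjusted p = 1.27e-17. In the list of nuclear noncoding RNAs, 6 of 7 tested genes were lower and 1 was higher (6 and 0 on library totals), with a median of -3.89, or -2.56 without the runner library, and sums of 6169, 2473 and 4967 CPM against 98445, 108277 and 132026 CPM in the neurons. The exception was Rian, at 192, 281 and 239 CPM in the dendritic-mRNA barcodes and 265, 282 and 200.5 CPM in the neurons, log2 fold change 0.79 ± 0.26, adjusted p = 0.0117, whose sign turned on library totals and whose adjusted p was 0.156 without the runner library. Of 9 tested neuronal transcription factor mRNAs, 2 were higher and 5 lower (1 and 6 on library totals, median -0.73). Zbtb20, a transcription factor of hippocampal neurons, was at 359.8, 620.1 and 379.9 CPM in the dendritic-mRNA barcodes and 1629, 2189 and 1724 CPM in the neurons, log2 fold change -1.12 ± 0.16, adjusted p = 1.49e-06. Mef2c, an activity-regulated factor, was at 74.6, 76.7 and 75.2 CPM in the dendritic-mRNA barcodes and 530.3, 417 and 521 CPM in the neurons, log2 fold change -1.74 ± 0.25, adjusted p = 1.91e-06, and the classes did not overlap.

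Of the 12 genes with the lowest log2 fold changes, 11 were annotated as noncoding or of unsettled coding status, and 8 lay inside or opposite a coding gene. Noncoding genes were 2.62% of all tested genes with an annotation, 4.4% of the lower and 2.90% of the higher. The UMIs below are sums over the 3 libraries, and the dendritic-mRNA sums were the deeper ones. Genes with 0 or few UMIs in the dendritic-mRNA sums passed the filter on low counts through the neuron sums alone. Such genes could be called only lower. Gm42770 (GRCm38, chromosome 5, 49124587 to 49128741, minus strand), inside Kcnip4 on the same strand, and Gm44799 (chromosome 8, 9658248 to 9659449, minus strand), inside Fam155a, each had 0 UMIs in the dendritic-mRNA barcodes and 28 in the neurons, and their levels in the neurons were at least 76.1-fold higher, taking a floor of 3 UMIs over all 3 libraries. Gm20371, Gm44228 and Gm44230 lie inside Lrrtm4, a synaptic adhesion gene, on the same strand, and had 1, 3 and 2 UMIs against 37, 44 and 37. Gm44560 and Gm44562 lie on the strand opposite Ube3a, with 1 UMI each against 40 and 23, and A230103L15Rik, also on chromosome 7, had 1 against 37. Gm45182 inside Dlg2 had 1 against 20, Gm26871 had 3 against 64, and Lingo2, a protein-coding gene, had 2 against 35. Meg3 completed the set with 66 against 769. The sources used here do not say whether counting used strand or introns, so UMIs of a noncoding gene and of the gene around it cannot be told apart. Of 59 noncoding genes among all lower genes, 28 lie inside a coding gene on the same strand, against 36 of 133 among all tested and 5 of 44 among the higher. The filter partly sets these counts and the noncoding shares above, so no conclusion is drawn from them. Coding genes that were lower had longer annotated transcripts, with a median of 3159.5 bases against 2189 for the higher and 2626.5 for all tested.

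Ribosomal protein and respiratory chain mRNAs filled a large share of the dendritic-mRNA barcodes. Ribosomal protein genes summed to 263726, 253123 and 288605 CPM against 88957, 80498 and 96023 CPM in the neurons, and 80 of 82 tested genes were higher and 1 lower (70 and 1 on library totals), with a median of 2.18. Rps29 was at 21502, 20178 and 24305 CPM in the dendritic-mRNA barcodes and 3030.2, 2981 and 3608 CPM in the neurons, log2 fold change 3.69 ± 0.10, adjusted p = 6.47e-20. Rpl41 and Rpl37, also short ribosomal proteins, had log2 fold changes of 3.08 ± 0.10 (adjusted p = 1.32e-18) and 3.39 ± 0.11 (adjusted p = 1.14e-18). Ribosomal protein genes have many processed copies in the genome, and how the authors' counting assigned such reads is not given here. Nuclear genes of the respiratory chain summed to 91155, 98073 and 91242.5 CPM against 47745, 43271 and 40654 CPM. Of 86 tested, 63 were higher and 1 lower with a median of 0.95, and on library totals 27 were higher and 8 lower.

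Cox8a, Cox6a1 and Cox4i1, subunits of cytochrome c oxidase encoded in the nucleus, were the most abundant. Cox8a was at 15382, 15775 and 17051 CPM in the dendritic-mRNA barcodes and 2499.9, 1995 and 2125 CPM in the neurons, log2 fold change 3.77 ± 0.11, adjusted p = 3.23e-19. Cox6a1 was at 7918, 8564 and 7545 CPM in the dendritic-mRNA barcodes and 1250.0, 1086 and 1323 CPM in the neurons, log2 fold change 3.66 ± 0.12, adjusted p = 2.25e-18. Each dendritic-mRNA value was several times its neuron value. Of 16 glycolysis genes, 9 were higher and 2 lower (4 and 3 on library totals, median 0.81). The aldolases differed: Aldoc, the isoform of astrocytes, was at 1985, 2247 and 1722 CPM in the dendritic-mRNA barcodes and 94.7, 141 and 361 CPM in the neurons, log2 fold change 4.59 ± 0.23, adjusted p = 6.12e-15, while Aldoa, the common isoform, was at 585, 679 and 443 CPM in the dendritic-mRNA barcodes and 1383, 1349.7 and 1123 CPM in the neurons and did not pass (log2 fold change -0.26 ± 0.16, adjusted p = 0.181), though it was lower on library totals. Gapdh was called at 1.33 ± 0.20 (adjusted p = 3.02e-06), but the call was lost on library totals.

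**Figure D2:**
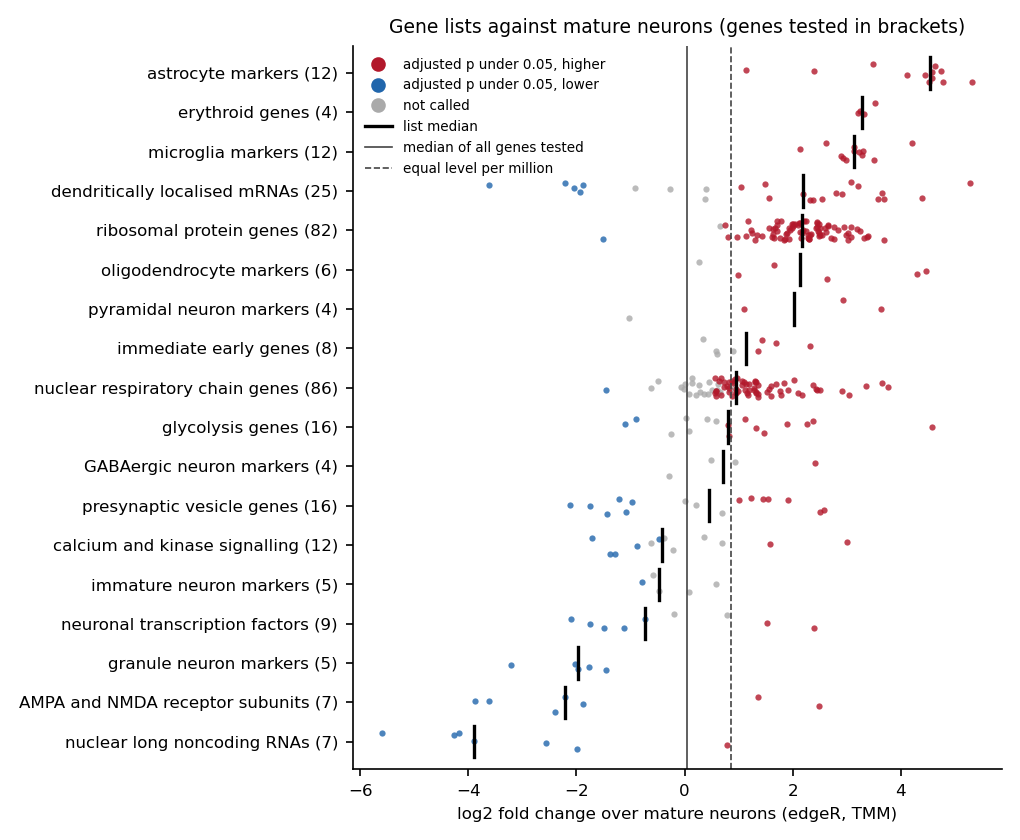
Log2 fold changes of dendritic-mRNA barcodes against mature neurons for each gene list with at least 4 tested genes, 1 point per gene (red higher, blue lower, grey not passing an adjusted p of 0.05), with a bar at each list's median. The solid line is the median of all genes tested (0.05) and the dashed line is where equal CPM falls (0.87). Astrocyte and microglia markers lie to the right of both lines and nuclear noncoding RNAs mostly to their left.

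Glial mRNAs were present beside the dendritic mRNAs. The 12 astrocyte markers summed to 17177, 17910.3 and 16435 CPM in the dendritic-mRNA barcodes, 3219.6, 3427 and 3207 CPM in the neurons and 1371, 977 and 1164 CPM in the microglia reference. All 12 were higher than in neurons (11 on library totals, median 4.55). Slc1a2, the main astrocyte glutamate transporter, was at 4808, 5198 and 4777 CPM in the dendritic-mRNA barcodes and 359.8, 340.3 and 281 CPM in the neurons, log2 fold change 4.78 ± 0.16, adjusted p = 1.14e-18. Mt3, a metallothionein of astrocytes, was at 6627, 6652 and 6008 CPM in the dendritic-mRNA barcodes and 2348, 2365 and 2165 CPM in the neurons, log2 fold change 2.39 ± 0.11, adjusted p = 2.55e-15. The separation was complete for both. Oligodendrocyte markers summed to 5876, 6021 and 5342 CPM against 436, 1344 and 481 CPM, with 5 of 6 tested genes higher (3 on library totals, median 2.14, or 4.31 without the runner library). Mbp, the myelin basic protein whose mRNA is carried into myelin, was at 4655, 4554 and 3908 CPM in the dendritic-mRNA barcodes and 341, 481 and 361 CPM in the neurons, log2 fold change 4.31 ± 0.16, adjusted p = 9.57e-18. Mobp, another myelin gene, was higher by 4.47 ± 0.30 (adjusted p = 1.80e-12).

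Microglia markers stood at a lower level than astrocyte markers but were also higher than in neurons. They summed to 2931, 1721 and 3054 CPM against 928, 329 and 401 CPM, with 12 of 12 higher (11 on library totals, median 3.13). At least 4 of the 12 markers, the number that defined the microglia reference, were detected in 92, 46 and 144 dendritic-mRNA barcodes. In the neurons that held for 2, 1 and 0 barcodes. How much of the sums came from such barcodes was not tested. C1qa, a complement component made by microglia, was at 477, 295 and 494 CPM in the dendritic-mRNA barcodes and 75.8, 70.4 and 40.1 CPM in the neurons, log2 fold change 3.28 ± 0.31, adjusted p = 2.66e-09. Ctss, a lysosomal protease, and Tyrobp, an adaptor of microglial receptors, were also higher (2.90 ± 0.36, adjusted p = 1.88e-07, and 3.13 ± 0.42, adjusted p = 6.97e-07). Of markers of oligodendrocyte precursors and endothelium 1 gene each could be tested: Olig1 was higher (log2 fold change 3.31 ± 0.50, adjusted p = 3.95e-06) and Bsg did not pass (log2 fold change -0.51 ± 0.25, adjusted p = 0.0783) but was lower on library totals. Erythroid genes summed to 4457, 708 and 1253 CPM against 94.7, 346 and 200.5 CPM, and all 4 tested were higher (median 3.29, or 5.86 without the runner library). Immediate early genes, which also respond to dissociation, had 4 of 8 higher (2 higher and 1 lower on library totals, median 1.13, or 2.38 without the runner library), with Junb at 1.69 ± 0.32 (adjusted p = 7.72e-05), while Fos, at 1.43 ± 0.31 (adjusted p = 3.70e-04), lost its call on library totals and Jun did not pass (log2 fold change 0.35 ± 0.24, adjusted p = 0.215) and changed sign there. After thinning to 200 non-mitochondrial UMIs, neither Junb (log2 fold change 0.38, edgeR adjusted p = 0.783) nor Fos (0.29, adjusted p = 0.837) passed. The part of the glial mRNAs in the differences from neurons was not tested.

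The 12 highest log2 fold changes belonged to genes with no UMI in any of the neuron sums, so their folds are bounds against a floor of 3 UMIs over the group. These genes passed the filter on low counts through the dendritic-mRNA sums alone, and the neuron sums were much smaller. Their place at the top is therefore partly set by the filter and the depth. Zcchc24 had 303 UMIs and was at least 12.4-fold higher, and Abat, an enzyme that degrades GABA, had 255 UMIs and was at least 10.4-fold higher. Epas1, a hypoxia-inducible factor, Haus8, a subunit of the augmin complex, and Neurl1b had bounds of 8.82, 8.42 and 8.09. Fgfr3, a fibroblast growth factor receptor of astrocytes, had 126 UMIs and a bound of 5.15. Gna12, Pbxip1, Tmem176b, Fgf1, CT010577.1 and Necab2 had bounds between 3.88 and 5.47.

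Markers of neuron types differed in direction. Granule neurons are the principal neurons of the dentate gyrus, and all 5 of their tested markers were lower in the dendritic-mRNA barcodes (median -1.98), summing to 175, 155 and 134 CPM against 1288, 874 and 1243 CPM. Stxbp6, a SNARE-binding protein, was at 59.7, 44.4 and 36.2 CPM in the dendritic-mRNA barcodes and 455, 252 and 481 CPM in the neurons, log2 fold change -2.02 ± 0.30, adjusted p = 2.80e-06, with no overlap. Rfx3, a transcription factor, and Dock10, a guanine nucleotide exchange factor, had log2 fold changes of -1.98 ± 0.31 (adjusted p = 7.21e-06) and -1.45 ± 0.43 (adjusted p = 0.00569). The call of Dock10 was lost with DESeq2 (adjusted p = 0.190), without the filter on low counts (0.0975), without the control library (0.161) and without the runner library (0.234). Of 4 tested pyramidal neuron markers, 3 were higher, namely Mpped1 at 3.64 ± 0.55 (adjusted p = 4.61e-06), Ociad2 at 2.93 ± 0.48 (adjusted p = 1.34e-05) and Nrip3 at 1.11 ± 0.44 (adjusted p = 0.0365), the last lost on library totals, with DESeq2 and with 1 library left out (adjusted p = 0.0512 to 0.176). On library totals 2 were higher and 1 lower. Their median was 2.02, or 1.07 without the aged library. Mpped1 stood at 104, 121 and 67.1 CPM in the dendritic-mRNA barcodes and 0, 23.5 and 0 CPM in the neurons. After thinning to 200 non-mitochondrial UMIs, neither Mpped1 (1.79, edgeR adjusted p = 0.396) nor Ociad2 (2.05, adjusted p = 0.322) passed. Of 4 GABAergic markers, 1 was higher and 0 lower (1 and 1 on library totals), and their median was 0.71, or 1.66 without the aged library. Cck, whose sign turned on library totals, and Gad1, which was lower there, did not pass (0.48 ± 0.30, adjusted p = 0.174, and -0.28 ± 0.38, adjusted p = 0.553). Of 5 immature neuron markers Stmn1 was lower (log2 fold change -0.79 ± 0.21, adjusted p = 0.00217) and the others, Sox11 and Calb2 among them, did not pass (-0.48 ± 0.29, adjusted p = 0.170, and 0.58 ± 0.40, adjusted p = 0.219). On library totals 3 of the 5, Sox11 included, were lower, and the sign of Calb2 turned. The call of Stmn1 was lost with DESeq2 (adjusted p = 0.202), without the filter on low counts (0.444), without the control library (0.202) and without the runner library (0.104). The mature neurons were themselves chosen by granule and pan-neuronal genes such as Prox1 and Calb1, so the granule values are not independent of that choice.

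A second comparison set the dendritic-mRNA barcodes against the 626 other mitochondria-rich barcodes, which passed the same mitochondrial limit without a UMI of Camk2a or Ddn. There were 132, 287 and 207 of them, since the dendritic-mRNA barcodes made up 90.4, 86.4 and 88.6% of all barcodes past that limit, with a median of 413, 323 and 368 non-mitochondrial UMIs. Few genes differed. Of 3475 genes tested, 82 (2.36%) passed, 65 higher (1.87%) and 17 lower (0.489%). The dendritic list had 9 of 22 tested genes higher, 1 lower and a median of 0.51 against -0.01 over all genes. Its sum was 17806, 20598 and 18923 CPM against 13425, 14898 and 15048 CPM in the other mitochondria-rich barcodes. Calls here were fragile. DESeq2 called 41 genes, a fit without the library block called 4 (Btbd3, Ncdn, Psd and Sowaha, named after their values were seen), and leaving out the aged library left 17, all higher.

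Psd had the lowest adjusted p of the dendritic list, at 1353, 1711 and 1556 CPM against 642, 644 and 739.9 CPM in the other mitochondria-rich barcodes, log2 fold change 1.23 ± 0.10, adjusted p = 7.73e-07. Ppp1r9b was at 1124, 1224 and 1249 CPM against 416, 566 and 704 CPM, log2 fold change 1.08 ± 0.12, adjusted p = 1.26e-05. Map2 was at 1596, 1971 and 1383 CPM against 1110.0, 1045 and 1026 CPM, log2 fold change 0.68 ± 0.10, adjusted p = 2.58e-04. These 3 genes were higher in every library with no overlap between the classes. Shank1, Dlg4, Agap2, Camk2n1 and Eef2 also passed, with log2 fold changes of 0.86, 0.86, 0.90, 0.64 and 0.51, though the calls of Agap2, Camk2n1 and Eef2 were lost without the aged library. Kif5a went the other way, at 2565, 3071 and 3137 CPM against 3105, 3661 and 3676 CPM, log2 fold change -0.23 ± 0.06, adjusted p = 0.0434, a small difference whose call was lost with 1 library left out (adjusted p = 0.133 to 0.308) and whose sign turned without the filter on low counts. Kif5a was thus far above neurons in both kinds of mitochondria-rich barcode.

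Among the 6 highest genes in this comparison, Kcnh3, a voltage-gated potassium channel of forebrain neurons, had 102 UMIs in the dendritic-mRNA barcodes and 1 in the other class, a CPM ratio of 12.3 with a counting interval of 2.16 to 490.0. Over the 3 libraries, Gpr27, an orphan receptor, stood at 78.5 against 16.4 CPM, Lrrc10b at 117 against 32.8 CPM, Syt7, a synaptotagmin, at 129.9 against 41.0 CPM, and Dgkz, a diacylglycerol kinase, at 319.6 against 115 CPM. Hbb-bt, a hemoglobin gene, stood at 134 against 36.9 CPM, but 201 of its 272 UMIs in the dendritic-mRNA barcodes came from the control library. Without that library its log2 fold change was 0.53 and it did not pass (edgeR adjusted p = 0.877). The lowest were Slc32a1, the vesicular GABA transporter, at 9.38 against 41.0 CPM, and Amph, a presynaptic endocytosis protein, at 19.3 against 61.5 CPM, both on 15 UMIs or fewer in the other class. Trak2, an adaptor that links mitochondria to kinesin-1, Kif5c and Kif5b, kinesin-1 heavy chains, and Tbc1d9b completed the 6, with log2 fold changes of -0.85, -0.71, -0.44 and -0.84. None of these 12 genes passed in edgeR's test without the library block or without the aged library. Astrocyte and microglia lists hardly differed: 1 of 12 astrocyte markers was lower (Aldoc, -0.28 ± 0.07, adjusted p = 0.0357, with the call lost when 1 library was left out and a sign that turned without the filter on low counts) and 0 of 12 microglia markers passed in edgeR's test. Ribosomal protein genes had 0 of 81 higher and 2 lower, and respiratory chain genes had 4 of 84 higher and 1 lower, Cox6a1 among them (0.31 ± 0.05, adjusted p = 9.88e-04).

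Among the dendritic-mRNA barcodes, other dendritic mRNAs stood higher where the rule genes did. This is a description, since the barcodes were ordered by Camk2a plus Ddn, whose UMIs were left out of the levels. Barcodes with 1 UMI of Camk2a plus Ddn numbered 221, 347 and 298 and those with 10 or more numbered 97, 180 and 94. The median non-mitochondrial depth was 389, 333 and 374 UMIs in the first and 430.0, 452 and 458.5 in the second, so depth moved with the ordering and its part was not tested. From the first to the second the dendritic list went from 14748, 16811 and 15732 to 25385, 26823 and 24654 CPM. Psd went from 719, 938 and 1017 to 2663, 3239 and 2694 CPM and Map2 from 1249, 1395 and 1041 to 2347, 2618 and 1885 CPM. Both were higher in the second in every library. Kif5a went the other way, from 3129, 4061 and 3491 to 1899.7, 2121 and 1790.4 CPM, as did Kif5c, from 1349, 1504 and 1537 to 596, 699.6 and 555 CPM. Astrocyte markers went from 18230.3, 19043 and 17789 to 17526, 16193 and 15020.4 CPM and microglia markers from 3228, 1728 and 2970.2 to 1527, 2516 and 3121 CPM.

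**Figure D3:**
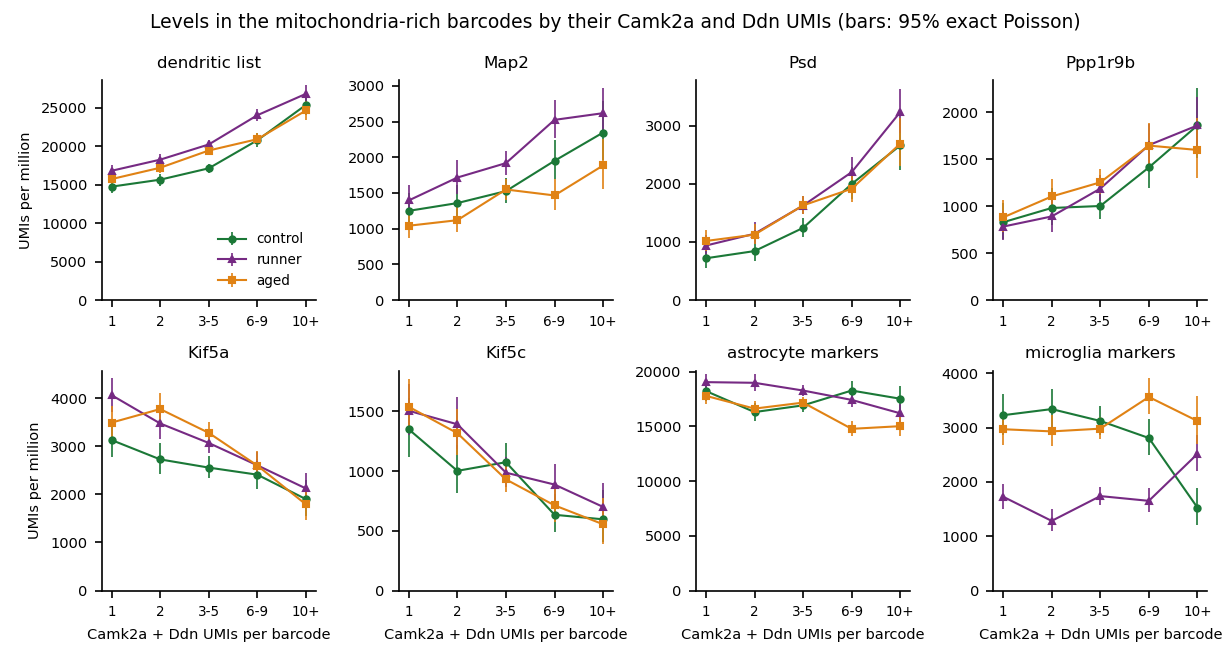
Levels in dendritic-mRNA barcodes grouped by their UMIs of Camk2a plus Ddn (1, 2, 3 to 5, 6 to 9, 10 or more), as UMIs per 1000000 non-mitochondrial UMIs without those 2 genes, 1 line per library with 95% exact Poisson intervals that cover counting error only. The dendritic list, Map2, Psd and Ppp1r9b end higher than they begin in all 3 libraries, and Kif5a and Kif5c end lower.

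The mitochondrial share, which the rule also used, ordered the barcodes in another way. The lowest range, 30 to 40%, held 324, 235 and 222 barcodes with a median of 468.5, 507 and 543 non-mitochondrial UMIs. The highest, 60% and over, held 36, 77 and 141 barcodes with a median of 274.5, 244 and 290.0, so depth moved with the ordering here too. From the lowest to the highest, the dendritic list went from 15343, 17243 and 15739 to 22738, 23471 and 23103 CPM and the respiratory chain list from 80244.5, 84804.5 and 74113 to 105482, 113067 and 110337 CPM. Nuclear noncoding RNAs went down, from 12202, 5438 and 14132 to 1981, 1923 and 1054 CPM, and most of that sum was Malat1, which went from 11883, 5049 and 13700.4 to 1793, 1381 and 802 CPM. Microglia markers went from 4649.9, 3191 and 7019.5 to 1698, 1134 and 1398 CPM and immediate early genes from 3459.9, 1865.5 and 2424 to 943, 592 and 711 CPM. All 3 libraries moved the same way in each of these lists. The barcodes just over the 30% limit thus held the most Malat1 and microglia marker RNA. Across the limit itself, nuclear noncoding RNAs stood at 24977, 18250.2 and 40667 CPM just under it and 24859, 10514 and 21562 CPM just over it.

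**Figure D4:**
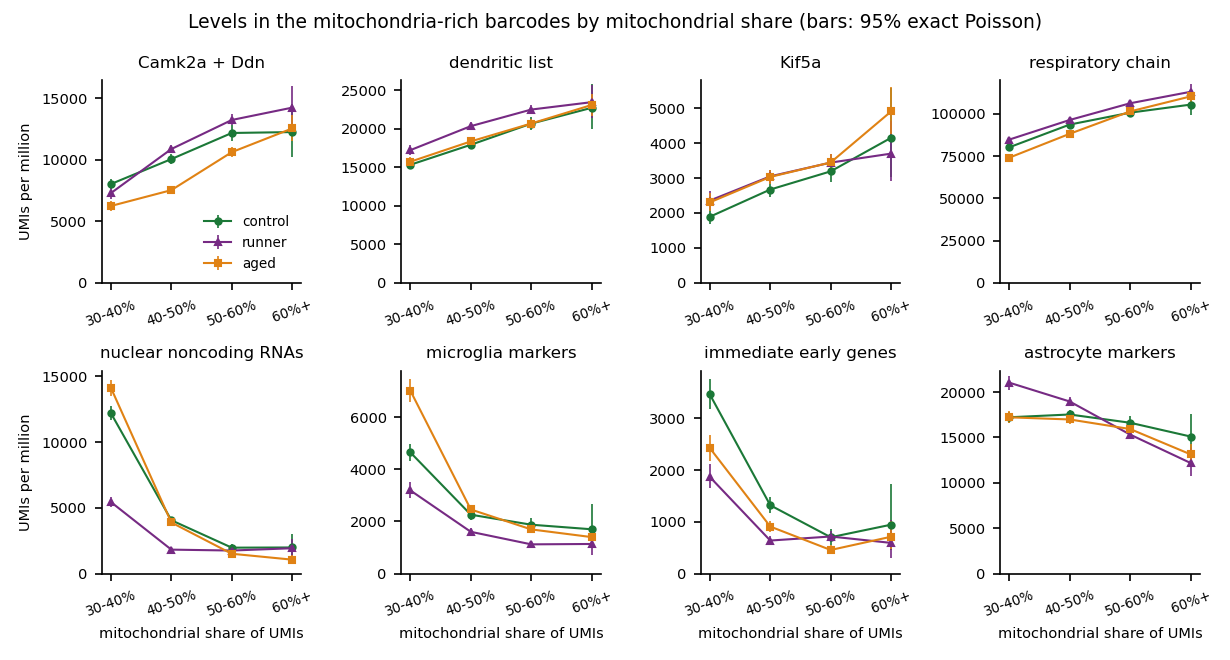
Levels in dendritic-mRNA barcodes grouped by their mitochondrial share (30 to 40%, 40 to 50%, 50 to 60%, 60% and over), as UMIs per 1000000 non-mitochondrial UMIs, 1 line per library with 95% exact Poisson intervals that cover counting error only. The dendritic and respiratory chain lists end higher than they begin in all 3 libraries, while nuclear noncoding RNAs, microglia markers and immediate early genes end lower.

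Variation from barcode to barcode was described for the more abundant genes. Each barcode was thinned to 200 non-mitochondrial UMIs, which left out 0, 35 and 5 shallower barcodes, and the variance over the mean had a median of 1.03, 1.02 and 1.03 over 487, 507 and 471 genes with a mean of at least 0.05 UMIs, where independent counting gives a value near 1. At this depth a gene of low mean, such as Map2 at 0.340, 0.420 and 0.279 UMIs per barcode, can lie near 1 even where barcodes vary, so the median does not show that the barcodes are alike. Camk2a reached 1.36, 1.44 and 1.36, Ddn 1.32, 1.51 and 1.41 and Map2 1.14, 1.24 and 1.14. Among other genes Hbb-bs, a hemoglobin gene, reached 13.4, 1.10 and 34.3, Malat1 8.06, 2.48 and 7.22, Cst3, the secreted cystatin C, 4.77, 5.03 and 3.97 and Actb 2.75, 1.28 and 1.91. The rule required a UMI of Camk2a or Ddn, which also shapes their spread and limits its comparison with that of other genes. In the runner library Camk2a and Ddn lay above Hbb-bs and Actb, and in the control and aged libraries below them. These genes were singled out after their values were seen. Barcodes with at least 10 hemoglobin UMIs numbered 34, 0 and 9.

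Within the mitochondrial RNA mt-Rnr2, the large ribosomal RNA, made up 15.8, 17.0 and 20.1% of mitochondrial UMIs in the dendritic-mRNA barcodes and 13.2, 11.8 and 12.2% in the neurons. It made up 15.6, 16.7 and 21.2% in the other mitochondria-rich barcodes and 17.0, 18.3 and 19.6% in the microglia reference, so the neurons were the class that stood lower. mt-Rnr1, the small ribosomal RNA, made up 3.81, 4.76 and 5.09% in the dendritic-mRNA barcodes and 2.60, 2.37 and 2.97% in the neurons. It made up 3.45, 4.16 and 4.99% in the other mitochondria-rich barcodes and 3.35, 3.28 and 3.87% in the microglia reference. mt-Cytb, which encodes cytochrome b of complex III, went the other way, at 20.3, 17.9 and 16.6% and 24.4, 23.1 and 23.7%. It made up 19.6, 18.0 and 16.2% in the other mitochondria-rich barcodes and 21.8, 20.9 and 19.9% in the microglia reference. mt-Atp8, a subunit of ATP synthase, made up 1.85, 1.08 and 1.93% in the dendritic-mRNA barcodes, 1.81, 1.07 and 1.87% in the other mitochondria-rich barcodes, 4.74, 2.71 and 3.55% in the neurons and 3.81, 2.93 and 3.51% in the microglia reference. For these 4 genes the dendritic-mRNA barcodes and the neurons did not overlap. They were not chosen by the naming rule given below, and other abundant mitochondrial genes did overlap. mt-Nd1 made up 25.8, 21.2 and 21.9% in the dendritic-mRNA barcodes and 25.2, 23.4 and 24.1% in the neurons. mt-Nd4 made up 10.7, 10.3 and 10.8% against 10.4, 9.8 and 10.4%. The rule used the sum of these genes, so their shares are described without a test.

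Between conditions only 1 library each can be set side by side, and runner and aged share the same control. In the runner library the dendritic list stood at 1.16 (1.13 to 1.19) times the control level, and in the aged library at 1.06 (1.04 to 1.09) times, with exact conditional binomial 95% intervals that cover counting error only. Per 1000000 of all UMIs, mitochondrial ones included, the ratios were 1.10 and 0.987, so the aged ratio changed side. Over all genes with at least 20 UMIs the median log2 ratio was 0.04 for runner and -0.03 for aged. Map2 was at 1596, 1971 and 1383 CPM, Psd at 1353, 1711 and 1556 CPM and Shank1 at 936, 1451 and 939.8 CPM. Astrocyte markers were at 1.04 (1.02 to 1.07) and 0.957 (0.931 to 0.983) times control. Ratios farther from 1 lay in other lists. Microglia markers were at 0.587 (0.545 to 0.632) times control in the runner library and 1.04 (0.977 to 1.11) in the aged. Nuclear noncoding RNAs were at 0.401 (0.378 to 0.424) and 0.805 (0.768 to 0.844) in sums made up mostly of Malat1. Single genes of that list had a median log2 ratio of -0.11 with 3 of 6 above control in the runner library, and -0.27 with 3 of 8 above control in the aged. Immediate early genes were at 0.479 (0.433 to 0.529) and 0.562 (0.511 to 0.617). How much of the ratios of the dendritic list comes with these other RNAs was not tested.

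Single genes were named by the bounds of their ratio to control. Actb, the cytoskeletal actin, was at 1325 CPM in the runner library and 5626 CPM in the control library, a ratio of 0.236 (95% interval 0.219 to 0.253). Hemoglobin genes were lower in both: Hbb-bs had a ratio of 0.215 (95% interval 0.188 to 0.246) in the runner and 0.375 (95% interval 0.336 to 0.418) in the aged library, and Hba-a1 of 0.0953 (95% interval 0.0780 to 0.116) and 0.175 (95% interval 0.150 to 0.203). Without the barcodes of 10 or more hemoglobin UMIs, the ratio of Hbb-bs became 1.06 in the runner and 0.561 in the aged library, so the 34 such control barcodes carried most of the difference in the runner library. Rpgrip1 and Sema4b had 1 UMI each in the runner library against 21 and 27 in the control library, ratios of 0.0344 (95% interval 8.31e-04 to 0.214) and 0.0267 (95% interval 6.53e-04 to 0.162). Among the highest ratios, Ttr, transthyretin of the choroid plexus, had 65 UMIs in the runner library against 2 in the control library, a ratio of 23.5 (95% interval 6.24 to 198), and Ccl12, a chemokine, had 79 UMIs in the aged library against 10, a ratio of 5.69 (95% interval 2.94 to 12.3). Ttf1 was higher in both, at 7.74 (95% interval 4.17 to 15.9) and 4.39 (95% interval 2.30 to 9.20). Sag, an arrestin of photoreceptors, had 62 UMIs in the runner library against 7, a ratio of 6.39 (95% interval 2.92 to 16.6). The other high ratios belonged to copies whose reads can be shared with relatives and are uncertain: Rps2-ps10 and Gm14303 in both, Rpl10-ps3 in the runner library, and Gm6472 and Rps23-ps1 in the aged library.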

How the data were processed

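Droplet-based single-cell RNA libraries of dissociated dentate gyrus, 1 each from control, runner and aged mice, were analysed from the tables that the authors deposited, which hold raw UMI counts per gene symbol and barcode. Cell Ranger 2.1.1, Seurat 3.1.0 and the build GRCm38 are named in the submitters' processing notes. How barcodes were called, the aligner and its annotation were not given in the sources used here. Genes listed per table were 13440, 15052 and 13128 for control, runner and aged, of which 29, 30 and 31 had names starting with mt-. No barcode was removed as a doublet, and no clustering was done.

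Barcodes were classed by the stated thresholds, and counts were summed per library and class over non-mitochondrial genes. Levels are CPM of those sums with exact Poisson 95% intervals. Sums were tested with edgeR 4.0.16 (R 4.3.3) by the quasi-likelihood test, with TMM factors, filterByExpr, the library as a block and an adjusted p of 0.05. The block is part of the main design because the 2 sums of a library share 1 suspension. Camk2a, Ddn and mt- genes were left out of both fits, and the 11 genes Prox1, Calb1, C1ql2, C1ql3, Rbfox3, Syt1, Snap25, Ncdn, Slc17a7, Nrgn and Grin2b out of the fit against neurons. The fitting code was tested on simulated data. DESeq2 1.42.0, other scalings, filters and thresholds, and each library left out were alternatives. No explanation was weighed, and lists are described by counts and medians without a set test. Some genes counted in the lists are not reported here by name. Lists for Cajal-Retzius and mural cell markers had no gene that could be tested.

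Named genes are the dendritic list in full, of other lists the 3 genes with most UMIs over the 6 sums, the 12 highest and 12 lowest against neurons and 6 and 6 against the other mitochondria-rich barcodes among genes that passed with the same direction in 3 libraries and at least 20 UMIs, and the 6 highest and 6 lowest ratios between conditions by their interval bounds. The barcodes, the gene lists and the tests were chosen with earlier results of these data known. Gene positions and transcript sequences are from GENCODE M21, which matched 99.2% of the genes tested against neurons by symbol. Other tools were Python 3.11.15, NumPy 2.4.6, SciPy 1.17.1, pandas 2.3.3, Biopython 1.88 and matplotlib 3.10.9.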

Additional observations from a re-analysis of the deposited data

How the results depend on the processing

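The number of genes tested differed between settings, so counts of calls are given with it. Against mature neurons the 2881 calls of 5113 genes became 1823 of 5113 (1223 higher, 600 lower) with DESeq2. They became 1751 of 2524 (935 higher, 816 lower) at a 50% mitochondrial minimum. After thinning every barcode to 200 non-mitochondrial UMIs they became 415 of 1594 (280 higher, 135 lower). With 1 library left out they ranged from 1575 of 4778 to 2737 of 5575. Against the other mitochondria-rich barcodes the 82 calls of 3475 genes became 41 of 3475 (36 higher, 5 lower) with DESeq2. They became 203 of 14396 (201 higher, 2 lower) without a filter on low counts and 39 of 984 (33 higher, 6 lower) at a 50% minimum. With at least 2 UMIs of Camk2a plus Ddn they became 152 of 2988 (119 higher, 33 lower). With 1 library left out they ranged from 17 of 3651 to 57 of 3621. Without the replicate block, which pairs the sums of one library, the counts were 2885 (1525 higher, 1360 lower) and 4 (4 higher, 0 lower). The share of barcodes selected was 59.8, 57.5 and 69.2% at a minimum of 20%, 39.3, 48.0 and 57.2% at 40%, 16.0, 24.5 and 33.2% at 50%, 43.6, 44.6 and 54.1% with at least 2 UMIs of the rule genes, 47.4, 51.4 and 60.8% with Camk2a alone, 37.9, 35.0 and 44.3% with Ddn alone and 48.9, 48.6 and 57.4% after thinning to 500 UMIs, and the runner share was 52.6% among barcodes with at least 200 genes. The aged share was the highest at each of these settings.

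List medians against neurons shifted with the scale. Per 1000000 of all UMIs they were 0.48 (dendritic mRNAs), -1.26 (presynaptic vesicle genes), -2.16 (calcium and kinase signalling), -3.95 (AMPA and NMDA subunits), -5.67 (nuclear noncoding RNAs), -2.47 (neuronal transcription factors), -3.60 (granule neuron markers), 0.32 (pyramidal neuron markers), -1.01 (GABAergic neuron markers), -2.20 (immature neuron markers), 1.41 (microglia markers), 2.86 (astrocyte markers), 0.42 (oligodendrocyte markers), -0.57 (immediate early genes), 0.45 (ribosomal protein genes), -0.77 (nuclear respiratory chain genes) and -0.91 (glycolysis genes), so those of presynaptic, GABAergic, immediate early, respiratory chain and glycolysis genes changed sign. On library totals without TMM, an alternative chosen after seeing the data, they were 1.33 (dendritic mRNAs), -0.40 (presynaptic vesicle genes), -1.31 (calcium and kinase signalling), -3.09 (AMPA and NMDA subunits), -4.82 (nuclear noncoding RNAs), -1.62 (neuronal transcription factors), -2.86 (granule neuron markers), 1.17 (pyramidal neuron markers), -0.15 (GABAergic neuron markers), -1.35 (immature neuron markers), 2.25 (microglia markers), 3.72 (astrocyte markers), 1.30 (ribosomal protein genes), 0.087 (nuclear respiratory chain genes) and -0.061 (glycolysis genes), with presynaptic, GABAergic and glycolysis genes changing sign. With DESeq2's size factors, also added afterwards, they were 0.68 (presynaptic vesicle genes), -0.52 (neuronal transcription factors), 2.39 (ribosomal protein genes) and 1.17 (nuclear respiratory chain genes), and with list members of at least 50 UMIs the pyramidal median was 2.93. With 1 library left out, medians ranged 0.43 to 0.75 (presynaptic vesicle genes), -3.75 to -2.56 (nuclear noncoding RNAs), -0.86 to -0.49 (neuronal transcription factors), 1.07 to 1.76 (pyramidal neuron markers), 1.27 to 1.66 (GABAergic neuron markers), 1.93 to 4.31 (oligodendrocyte markers), 2.34 to 5.86 (erythroid genes), 0.93 to 2.38 (immediate early genes), 2.19 to 2.40 (ribosomal protein genes), 1.002 to 1.19 (nuclear respiratory chain genes). The runner ratio of the dendritic list to control was 1.10 over all UMIs and 1.13 at a 40% minimum, and the aged ratio was 0.987 over all UMIs.

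Single genes changed sign against neurons with DESeq2 (Hpca 0.061), without the filter (Aldoa 0.21, Camk2b 0.0050, Gad1 0.14, Hpca 0.21, Sox11 0.0040), with 1 library left out (Hpca -0.36 to 0.032, Sox11 -0.55 to 0.22), at a 50% minimum (Jun -0.35), after thinning (Rian -0.25) and on library totals (Calb2 -0.27, Cck -0.39, Cyfip2 -0.50, Homer1 -0.44, Jun -0.54, Rian -0.089). Against the other mitochondria-rich barcodes they did so without the filter (Aldoc 0.021, Gria2 0.15, Hpca 0.28, Kif1a 0.070, Kif5a 0.067), with 1 library left out (Gria2 -0.46 to 0.14, Hpca -0.15 to 0.14), with at least 200 genes (Gria2 0.017, Hpca 0.0085) and with at least 2 rule UMIs (Hpca 0.037). After thinning to 200 non-mitochondrial UMIs, 19 single genes kept their sign against neurons but no longer passed. Another 44 kept their direction and side of the threshold. Among the 19 were Abat, C1qa, Camk2b, Cplx1, Dlgap3, Epas1, Fos, Gapdh, Junb, Mef2c, Mpped1, Ociad2, Olig1, Shank2, Stmn1, Vamp2 and Zcchc24. The ratio of Hbb-bs in runner to control was 1.06 without hemoglobin-rich barcodes, a setting added after seeing the data. The cause of these changes was not tested. Over single genes and alternative settings together, 1522 results kept their direction and side of the threshold, 136 kept the direction but no longer passed, 24 newly passed and 17 values without a test moved.

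Depth limits these results at the neuron end, where the aged sum held 24942 UMIs from 11 barcodes. With 1 library per condition, differences between conditions have no replicate error, and the intervals given for them do not cover differences between mice or preparations.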
